A study of Mus musculus with 76 samples.

Results

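Genes of mitosis and the spindle were followed through the thymus of SOD1-G93A mice. They are 50 genes taken by symbol from the annotated gene table of whole thymus and joined by gene ID to the other tables, and all 50 were found among the 55487 gene IDs. By role they comprise 7 genes of the CDK1 switch, 3 of the spindle kinases, 4 genes of the chromosomal passenger complex, 4 of the spindle checkpoint, 7 of the centromere and kinetochore, 8 motors and microtubule binders, 7 of the midzone and cytokinesis, 4 of anaphase and mitotic exit and 6 of the mitotic chromosome.

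SOD1-G93A mice carry a mutant human SOD1 transgene and are a model of amyotrophic lateral sclerosis. The strain entry of every library names SOD1-G93A, and the genotype entry divides them into mutant (SOD1 below) and wild type (WT). Neither the promoter of the transgene nor any pooling of animals is given in the sources used here. The 76 libraries of bulk RNA sequencing form 26 groups. From thymus, SOD1 and WT mice gave sorted cortical (cTEC) and medullary (mTEC) thymic epithelial cells, regulatory T cells (Treg) and cells labelled CD4 at d120 and at d30, and unsorted whole thymus at d120. Inguinal lymph node (iLN) of SOD1 and WT mice was taken at d120. Cultures from SOD1 and WT mice have Treg as their cell type entry and Tregdiff in their titles, with libraries without activation (T0) and at activation T2 and T20, times for which no unit is given. Of the libraries 46 are sorted cells, 18 cultures, 6 iLN and 6 whole thymus. Groups hold 3 libraries each, except 2 in WT cTEC and WT CD4 of d30.

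A cell enters mitosis when cyclins A and B activate the kinase CDK1, a step opened by CDC25 phosphatases and held back by WEE1. Chromosomes are then compacted by condensin and topoisomerase II, kinetochores attach them to spindle microtubules, and the spindle checkpoint holds the ubiquitin ligase APC/C until every chromosome is attached. CDC20 then switches on the APC/C, which destroys securin and cyclin B, sisters separate, and midzone proteins guide the cut between the daughter cells. Most of these genes are transcribed late in the cell cycle, through promoters bound by the DREAM and MuvB complexes, MYBL2, FOXM1 and NF-Y at a cell cycle homology region (CHR) and CCAAT boxes. In the thymus cortex, dividing cells are mainly immature thymocytes. Mature T cells at rest keep these genes low, and divide on activation.

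Promoter windows show what most of the genes share outside the measurements. RefSeq holds windows from 250 bases before to 50 after the start for 40 of the 50 genes, 42 windows in all (GRCm38.p6). The CHR letters TTTGAA were found on either strand in 33 of 42 windows (78.6%), against 17.9% of 32851 windows of all genes, and TTCGAA, which reads the same on both strands, in 9.52% against 1.56%. CCAAT was found on either strand in 78.6% against 37.4% of all windows. TTTGAA or TTCGAA together with CCAAT was held by 31 windows (73.8%), against 7.52% of all windows. Stretches of 150 bases are given for 6 genes on which the culture and age results turn (Cdk1, Ccnb1, Ccnb2, Cdc20, Bub1 and Top2a) and for 3 that moved otherwise in culture (Kif23, Cdc25b and Spc25), with both CHR forms and CCAAT, read on either strand, in capitals.
Cdk1, chr10:69352883-69353032, minus strand: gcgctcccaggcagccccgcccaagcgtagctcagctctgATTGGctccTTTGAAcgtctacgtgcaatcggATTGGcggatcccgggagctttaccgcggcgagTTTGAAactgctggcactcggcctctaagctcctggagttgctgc
Ccnb1, chr13:100786457-100786606, minus strand: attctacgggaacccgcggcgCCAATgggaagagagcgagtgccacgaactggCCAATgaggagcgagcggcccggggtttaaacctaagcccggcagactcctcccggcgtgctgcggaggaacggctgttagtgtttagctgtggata
Ccnb2, chr9:70421525-70421674, minus strand: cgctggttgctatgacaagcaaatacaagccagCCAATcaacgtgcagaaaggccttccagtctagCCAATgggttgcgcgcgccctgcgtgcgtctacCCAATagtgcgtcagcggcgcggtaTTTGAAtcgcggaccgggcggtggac
Cdc20, chr4:118437314-118437463, minus strand: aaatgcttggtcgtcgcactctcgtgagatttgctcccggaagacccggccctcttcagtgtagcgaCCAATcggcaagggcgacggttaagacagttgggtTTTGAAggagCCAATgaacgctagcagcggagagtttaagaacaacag
Bub1, chr2:127831830-127831979, minus strand: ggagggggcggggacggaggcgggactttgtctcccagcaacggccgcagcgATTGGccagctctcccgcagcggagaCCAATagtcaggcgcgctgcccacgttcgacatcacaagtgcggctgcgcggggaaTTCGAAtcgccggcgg
Top2a, chr11:99024160-99024309, minus strand: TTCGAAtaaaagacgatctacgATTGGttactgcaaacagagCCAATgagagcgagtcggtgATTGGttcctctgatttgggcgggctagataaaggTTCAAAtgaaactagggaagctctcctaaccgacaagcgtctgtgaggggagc
Kif23, chr9:61946770-61946919, minus strand: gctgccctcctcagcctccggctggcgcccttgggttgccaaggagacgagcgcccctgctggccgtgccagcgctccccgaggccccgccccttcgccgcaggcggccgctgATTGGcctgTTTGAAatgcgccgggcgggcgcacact
Cdc25b, chr2:131186828-131186977, plus strand: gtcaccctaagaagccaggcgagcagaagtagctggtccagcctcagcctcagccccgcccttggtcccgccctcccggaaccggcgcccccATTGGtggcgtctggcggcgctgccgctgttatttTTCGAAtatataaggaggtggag
Spc25, chr2:69206184-69206333, minus strand: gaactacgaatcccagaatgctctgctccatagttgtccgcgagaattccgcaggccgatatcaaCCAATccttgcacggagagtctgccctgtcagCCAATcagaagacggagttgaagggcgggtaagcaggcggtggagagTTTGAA
The Ccnb1 stretch holds CCAAT but neither TTTGAA nor TTCGAA, and other forms of the CHR were not searched. Spc25, the gene that fell most in culture, holds TTTGAA after its start, as do Ccnb2 and Kif23. Cdc25b and Bub1 hold TTCGAA after theirs. Of these, Ccnb2 and Bub1 rose in culture, so the place after the start was not particular to genes that fell. No window was at hand for Aurkb, Incenp, Kif20a, Foxm1, Cdc25c, Ccna2, Shcbp1, Spc24, Tpx2 and Smc4. A match of letters is a description of the sequence.

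Levels are given as CPM, counts scaled to the library total with TMM factors, and changes are log2 fold changes ± SE from edgeR's quasi-likelihood test. A gene was called where its p, adjusted by the Benjamini-Hochberg method over all genes tested, was under 0.05. Total counts ran from 15135 to 36919936 per library in the 70 libraries with counts, and 8 had under 3e+05 counts or 8000 genes (1 in cTEC, 1 in mTEC, 2 in iLN and 4 in the cultures). The shallowest, mTEC d30 SOD1 1, had 32 of the 50 genes at 0. Sod1 separated the genotypes in 12 of 13 sets, and the exception was mTEC of d30, at 34.4 to 320.1 CPM in SOD1 and 31.2 to 35.1 CPM in WT libraries. In the shallowest library, mTEC d30 SOD1 1, 34.4 CPM is 1 count. Its Sod1 value and its other values in CPM below therefore rest on very few counts. Markers went with the sorted labels only in part. Libraries labelled CD4 held summed Treg markers of 1063 to 1954 CPM, against 1386 to 3112 CPM in Treg libraries, and both held markers of double-positive thymocytes. Culture libraries of T0 held 107 to 614 CPM of the same markers, in a table scaled apart, with Foxp3, the defining factor of Treg cells, at 3.56 to 31.8 CPM, so the markers went against the Treg label at T0 and the cultures are called Tregdiff cultures here. Of the 50 genes 3 (Mki67, Mad2l1 and Ccnb1) have a near-identical transcript at another locus, at 95% identity or more over at least 200 bases, and 14 share at least 100 exon bases with an overlapping gene, over 20% of them in Kif20a and Ube2c, so their counts are uncertain. In bulk RNA, fewer cells of a type and less RNA per cell cannot be told apart.

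In the Tregdiff cultures nearly all mitosis genes were higher after activation. Of the 50 genes 45 rose and 3 fell at T2 against T0, with a median of 3.90, while the median of all 11787 genes tested was -0.24 and 58.1% of them were called. At T20 against T0 the counts were again 45 and 3, with a median of 3.86 against -0.25 over all genes, of which 58.2% were called. No library of T2 overlapped T0 for 40 of the genes, against 27.6% of all genes tested, and none of T20 for 43, against 34.5%. The mean log2 level over the 50 genes ran from 2.23 to 4.14 in the libraries of T0, 6.14 to 6.59 at T2 and 6.33 to 6.52 at T20.

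**Figure D1:**
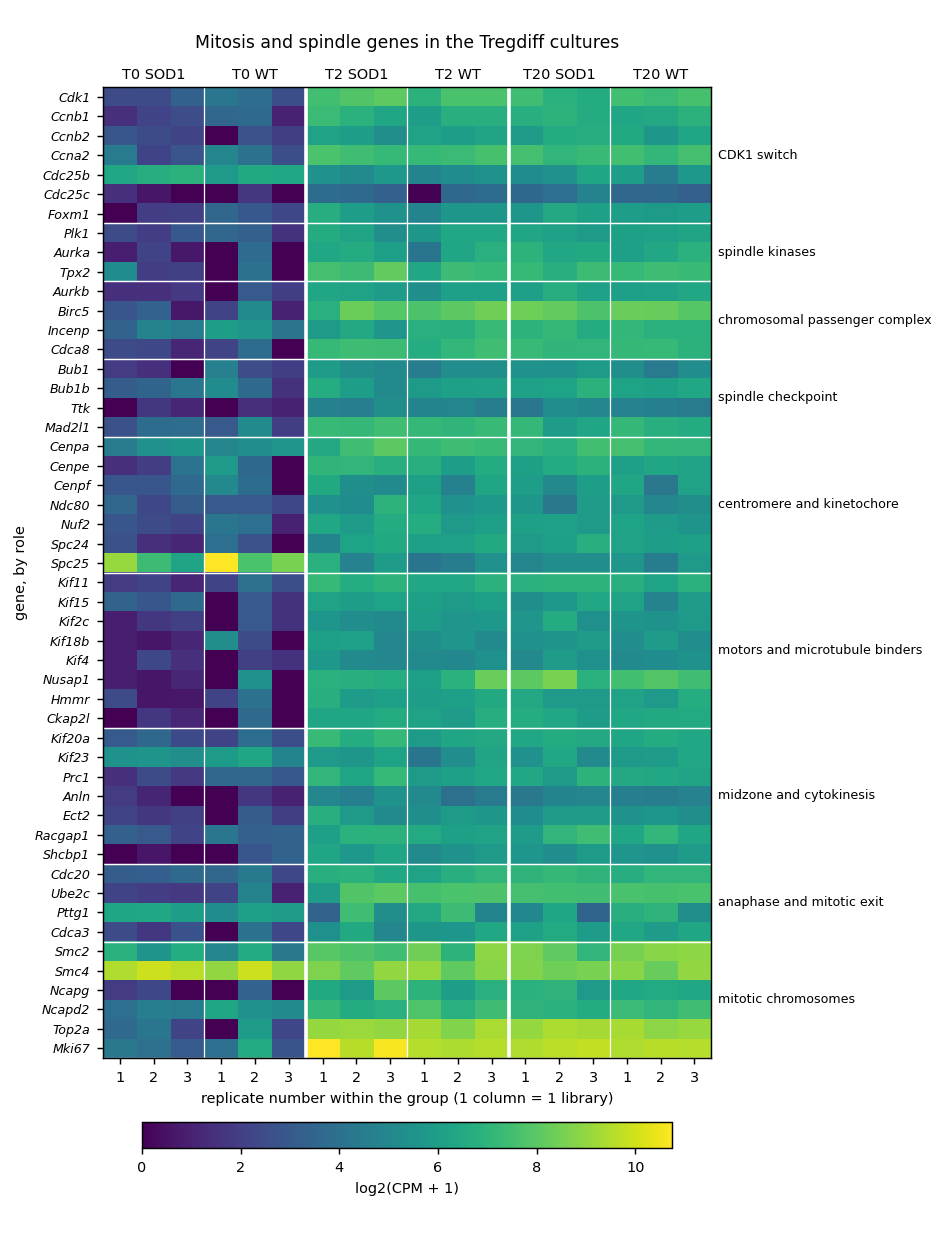
Level of each of the 50 genes in each of the 18 culture libraries, in columns by time and genotype and rows by role, coloured on the log2(CPM + 1) scale. Most rows are low in all T0 columns and high in T2 and T20, while Spc25, Smc4 and Cdc25b run the other way and Kif23 and Pttg1 show no such step.

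Mki67, whose protein coats mitotic chromosomes and serves as the usual marker of dividing cells, stood at 18.8, 14.5 and 7.33 CPM in SOD1 and 14.2, 95.3 and 5.89 CPM in WT libraries of T0. At T2 it stood at 1677, 778 and 1582 CPM in SOD1 and 752, 685 and 746 CPM in WT, and at T20 at 713, 794 and 863 CPM in SOD1 and 702, 763 and 741 CPM in WT. Each activated library lay far above each T0 library, and WT 2 was the highest of T0. The change was 5.37 ± 0.49 at T2 and 4.99 ± 0.48 at T20 (edgeR adjusted p = 1.08e-07 and 2.55e-07).

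In the CDK1 switch, 6 of 7 genes rose and 1 fell at both times, with medians of 3.92 at T2 and 4.10 at T20. Cdk1, the kinase that drives entry into mitosis, stood at 4.47, 4.65 and 9.16 CPM in SOD1 and 17.8, 13.4 and 4.91 CPM in WT libraries of T0. At T2 the levels were 177, 224 and 269.5 CPM in SOD1 and 118, 202 and 201 CPM in WT, and at T20 176, 117 and 98.1 CPM in SOD1 and 182, 158 and 194 CPM in WT. The lowest activated library lay above the highest of T0, and Cdk1 rose by 4.58 ± 0.30 and 4.22 ± 0.30 (edgeR adjusted p = 1.07e-08 and 2.2e-08). Its partner Ccnb1, cyclin B1, stood at 1.79, 3.49 and 4.89 CPM in SOD1 and 10.7, 12.03 and 0.981 CPM in WT libraries of T0. At T2 it was at 159, 114 and 78.2 CPM in SOD1 and 61.8, 109.6 and 105 CPM in WT, and at T20 at 105, 121 and 98.1 CPM in SOD1 and 80.9, 88.97 and 118 CPM in WT. Again no activated library reached down to T0, with changes of 4.34 ± 0.36 and 4.26 ± 0.36. Ccnb1 has 4 pseudogenes that match its transcript at 96.6 to 99.2% identity, so its counts are uncertain. Ccnb2, cyclin B2, rose by 4.14 ± 0.31 at T20.

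The member of the switch that fell was Cdc25b, a phosphatase that removes the inhibitory marks from CDK1. It stood at 84.1, 102 and 117 CPM in SOD1 and 53.4, 91.3 and 82.4 CPM in WT libraries of T0. At T2 it stood at 42.5, 34.00 and 52.2 CPM in SOD1 and 28.1, 36.8 and 43.1 CPM in WT, and at T20 at 35.96, 42.04 and 81.2 CPM in SOD1 and 65.1, 21.8 and 52.2 CPM in WT. All T2 libraries lay under all T0 libraries, whereas T20 overlapped T0. The changes were -1.17 ± 0.26 and -0.84 ± 0.26 (edgeR adjusted p = 0.000966 and 0.0101). The T20 call was lost without T0 SOD1 3, T0 WT 1, T0 WT 3 or T20 WT 2 (adjusted p up to 0.167), and both calls without a filter on low counts.

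**Figure D2:**
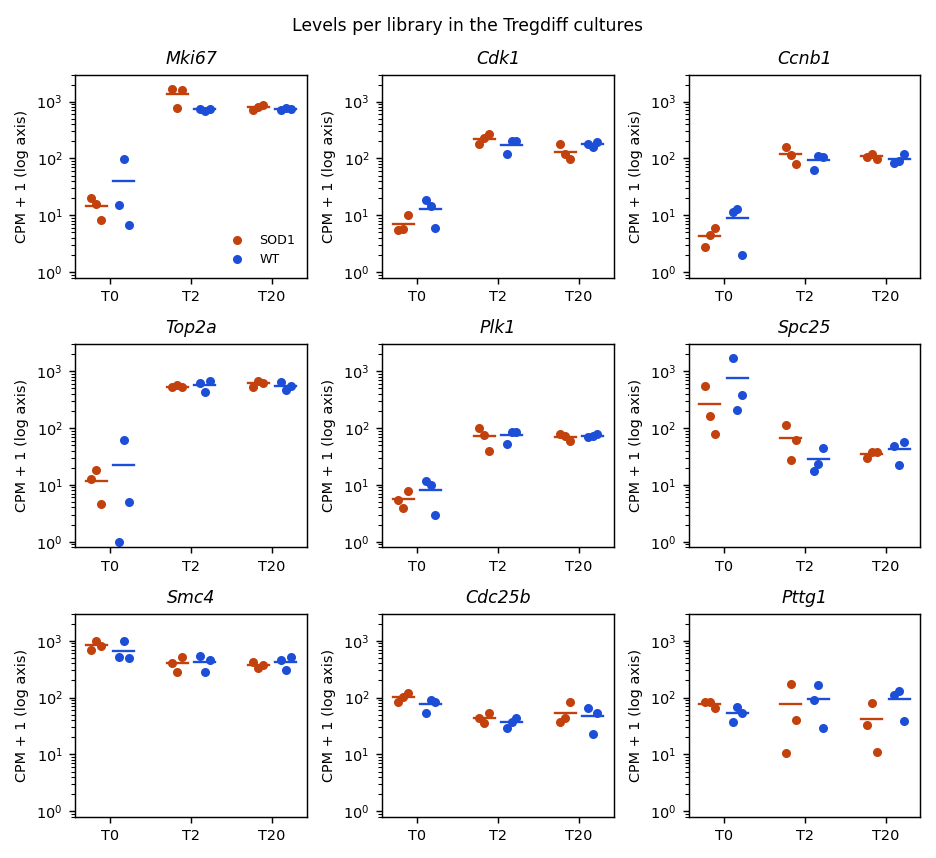
Levels of 9 of the genes in each culture library, in CPM + 1 on a log axis, by time with SOD1 and WT side by side; points are libraries and bars their group means. Mki67, Cdk1, Ccnb1, Top2a and Plk1 step up between T0 and T2 and stay there at T20, Spc25 steps down, and Pttg1 at T2 and T20 spreads both above and below its T0 range.

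Spindle kinases (3 of 3) and the chromosomal passenger complex (4 of 4) rose at both times. Plk1, the polo-like kinase of centrosomes and kinetochores, stood at 4.47, 2.91 and 6.72 CPM in SOD1 and 10.7, 8.91 and 1.96 CPM in WT libraries of T0. At T2 it was at 98.3, 75.6 and 39.1 CPM in SOD1 and 50.5, 85.7 and 84.7 CPM in WT, and at T20 at 77.9, 70.1 and 57.5 CPM in SOD1 and 67.7, 70.8 and 76.1 CPM in WT. Activated and T0 libraries did not overlap, and Plk1 rose by 3.75 ± 0.32 and 3.64 ± 0.32. Aurkb, the kinase of the passenger complex that corrects wrong attachments, ranged over 0 to 7.13 CPM at T0, 39.3 to 78.2 CPM at T2 and 66.3 to 103 CPM at T20. It rose by 4.38 ± 0.30 and 4.59 ± 0.31 (edgeR adjusted p = 1.26e-08 and 1.48e-08).

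All 4 spindle checkpoint genes rose, with medians of 3.53 at T2 and 3.30 at T20. Ttk, the kinase that starts the checkpoint at unattached kinetochores, rose by 4.29 ± 0.42 and 4.18 ± 0.42. Of the 7 centromere and kinetochore genes 6 rose and 1 fell, with subunits of the same complex on both sides. Nuf2 and Spc24, subunits of the NDC80 complex that grips microtubule ends, rose at both times, Nuf2 by 3.41 ± 0.36 at T2 and Spc24 by 4.31 ± 0.47 at T20. Spc25, the direct partner of Spc24 in that complex, stood at 550.3, 162 and 76.4 CPM in SOD1 and 1720.0, 209 and 386 CPM in WT libraries of T0. At T2 it stood at 111, 26.4 and 60.9 CPM in SOD1 and 16.8, 22.1 and 42.9 CPM in WT, and at T20 at 28.98, 37.4 and 37.2 CPM in SOD1 and 47.6, 21.8 and 55.1 CPM in WT. T0 libraries differed widely among themselves, with WT 1 the highest, and T2 SOD1 1 lay above T0 SOD1 3. Spc25 fell by 3.30 ± 0.55 at T2 and 3.56 ± 0.57 at T20 on the log2 scale (edgeR adjusted p = 6.5e-05 and 4.17e-05). No other gene shares 100 or more of its exon bases, and no other transcript matches it over 200 bases at 95% identity.

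All 8 motors and microtubule binders rose, with medians of 4.27 at T2 and 4.20 at T20. Kif11, the motor that pushes the spindle poles apart, ranged over 1.22 to 14.7 CPM at T0, 84.2 to 147 CPM at T2 and 74.4 to 122 CPM at T20, and rose by 4.48 ± 0.30 and 4.49 ± 0.30. Nusap1, which bundles spindle microtubules, had the largest rise of T20, at 0 to 45.4 CPM at T0, 67.4 to 309 CPM at T2 and 115 to 388 CPM at T20, with T0 WT 2 far above the other libraries of T0. Of the 7 midzone and cytokinesis genes 6 rose at each time. Shcbp1, a midbody protein, ranged over 0 to 9.81 CPM at T0, 33.7 to 78.2 CPM at T2 and 37.4 to 59.97 CPM at T20 and had the largest rise of T2, by 5.42 ± 0.41. Prc1, which bundles the midzone microtubules, ranged over 1.79 to 10.7 CPM at T0, 56.1 to 148 CPM at T2 and 56.05 to 122 CPM at T20 and rose by 4.09 ± 0.28 and 3.98 ± 0.28. Its motor partner Kif20a rose by 3.60 ± 0.28 at T2. The exception was Kif23, the motor of centralspindlin, which stood at 43.9, 46.5 and 38.5 CPM in SOD1 and 56.97, 79.3 and 27.5 CPM in WT libraries of T0. It had 54.6, 51.3 and 73.9 CPM in SOD1 and 16.8, 37.4 and 75.9 CPM in WT at T2, and 42.9, 84.1 and 33.8 CPM in SOD1 and 54.9, 58.1 and 86.8 CPM in WT at T20. These levels overlapped at all times, with changes of 0.13 ± 0.30 and 0.26 ± 0.31 that did not pass.

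Of the 4 genes of anaphase and mitotic exit 3 rose. Cdc20, the activator of the APC/C, ranged over 3.92 to 19.2 CPM at T0, 72.99 to 132 CPM at T2 and 102 to 140.1 CPM at T20 and rose by 3.29 ± 0.28 and 3.54 ± 0.28. Pttg1, securin, which holds separase until the APC/C destroys it, stood at 82.3, 83.2 and 64.1 CPM in SOD1 and 35.6, 65.9 and 52.98 CPM in WT libraries of T0. At T2 it stood at 9.80, 175 and 39.1 CPM in SOD1 and 89.8, 165 and 27.9 CPM in WT, and at T20 at 31.8, 79.4 and 10.2 CPM in SOD1 and 110.2, 127 and 38.5 CPM in WT. Activated libraries lay both above and below those of T0, and the changes of 0.41 ± 0.55 and -0.15 ± 0.57 did not pass.

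Of the 6 genes of mitotic chromosomes 5 rose and 1 fell. Top2a, the topoisomerase that untangles sister DNA, stood at 11.6, 17.4 and 3.67 CPM in SOD1 and 0, 61.04 and 3.92 CPM in WT libraries of T0. At T2 it stood at 524, 559.7 and 517 CPM in SOD1 and 623, 421 and 662 CPM in WT, and at T20 at 533, 677 and 629.5 CPM in SOD1 and 641, 467 and 545 CPM in WT. Groups did not overlap, and Top2a rose by 5.01 ± 0.53 and 5.09 ± 0.53. Smc4, a core subunit of condensin, stood at 699, 973 and 806 CPM in SOD1 and 509, 984 and 492 CPM in WT libraries of T0. It had 402, 281 and 517 CPM in SOD1 and 545, 280.5 and 463 CPM in WT at T2, and 415, 332 and 379 CPM in SOD1 and 459.9, 307 and 515 CPM in WT at T20. Smc4 was thus already among the highest of the 50 genes at T0, and the groups overlapped. It fell by 0.85 ± 0.25 and 0.88 ± 0.25 on the log2 scale (edgeR adjusted p = 0.00647 and 0.00492). Its T2 call was lost without T0 SOD1 3 (adjusted p = 0.0696) and its T20 call without T0 SOD1 3, T20 SOD1 3 or T20 WT 2 (adjusted p up to 0.117), and both without the filter and without the libraries of low depth.

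T20 against T2 brought no call among the 50 genes or among all genes (0%), with 0 of the 50 and 457 of all genes at an unadjusted p under 0.05 and none of the 50 called by DESeq2 or limma voom. Log2 fold changes of the 50 ran from -0.56 to 0.70. Cdk1 was at -0.36 ± 0.24, Incenp, the scaffold of the passenger complex, at 0.40 ± 0.27 and Nusap1 at 0.70 ± 0.50.

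Other lists of the pathway were read beside the 50 genes. Of 60 other mitosis genes 55 rose and 3 fell at T2, with Espl1, separase, and Tacc3, which strengthens spindle fibres, among those that rose. Of 15 APC/C genes 4 rose and 4 fell, and they included Fbxo5, an APC/C inhibitor, at 2.09 ± 0.26 and Cdc27, a core subunit, at -1.62 ± 0.41. Of 14 genes of entry brakes and the DREAM and MuvB complexes 6 rose and 2 fell. Of all genes 23.8% rose and 34.3% fell at T2, with 58.1% called. The calls among the APC/C genes and among the entry brakes, both directions together, lie near that share. The CDK inhibitor genes moved apart, Cdkn1a (p21) at 4.53 ± 0.52 and Cdkn1b (p27) at -3.47 ± 0.39, and Wee1, the kinase that holds CDK1 off, was at 4.0 ± 0.50. Of 24 S phase genes 20 rose and 0 fell, among them Rrm2, a subunit of ribonucleotide reductase, at 4.72 ± 0.38. Cell type markers moved in the same comparison. Treg markers rose in 8 of 8, with sums of 107 to 614 CPM at T0 and 2667 to 6080 CPM at T2, T cell markers fell in 5 of 7 and rose in 1, and markers of double-positive thymocytes fell in 8 of 9, with sums of 224 to 1357 CPM at T0 and 13.04 to 208 CPM at T2. Their part in the change of the mitosis genes was not tested.

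Genotype was compared within each culture time. At T0, 1 of the 50 genes was called, against 0.0679% of all genes. It was Shcbp1, at 0, 0.582 and 0 CPM in SOD1 against 0, 6.24 and 9.81 CPM in WT libraries, which overlapped at 0. It fell by 4.66 ± 0.84 on the log2 scale (edgeR adjusted p = 0.0364), a call lost in 5 of 6 fits without 1 library of T0 (adjusted p up to 0.512). The 50 genes had a median of -0.97, 41 were negative and 15 had an unadjusted p under 0.05 (629 of all 11787 genes), but without T0 WT 2 the median was 0.55. Kif11 was at -1.93 ± 0.50 and Ncapd2, a condensin I subunit, at -1.29 ± 0.35, and neither passed (edgeR adjusted p = 0.453 and 0.455). DESeq2 and limma voom called 0 of the 50 at T0.

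At T2 no member was called between SOD1 and WT (0.0933% of all genes), 3 of the 50 had an unadjusted p under 0.05 (1035 of all genes), and DESeq2 and limma voom called 0. These were Incenp at -0.94 ± 0.39, Prc1 at 0.73 ± 0.32 and Kif20a at 0.74 ± 0.34 (edgeR adjusted p = 0.505 to 0.541). At T20 none was called (0.0933% of all genes), with 0 at an unadjusted p under 0.05 (286 of all genes) and 0 by DESeq2 and limma voom. The smallest p belonged to Pttg1 at -1.28 ± 0.84, Ncapd2 at -0.45 ± 0.32 and Smc2, the other core subunit of condensin, at -0.68 ± 0.53. The genotype difference in the rise itself gave 0 calls at T2 and T20 (0% and 0% of all genes), and 0 by DESeq2 and limma voom. An unadjusted p under 0.05 was reached by 13 and 10 of the 50, and by 486 and 444 of all genes. The smallest p was that of Shcbp1 at both times, at 5.21 ± 0.93 and 4.6 ± 0.96 (edgeR adjusted p = 0.171 and 0.735). The medians of 1.01 and 1.04 turned to -0.15 and -0.56 without T0 WT 2, and the median of T20 was 0.57 without T0 WT 1. Simulated differences between genotypes at T20 were recovered for 47.5% of genes at 4-fold and 2% at 2-fold. A lack of calls in the cultures therefore does not show a lack of change.

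The mean level over the 50 genes was then read in each sorted population. On the log2(CPM + 1) scale cTEC libraries had 0.87 to 3.72 at d120 against 5.42 to 6.16 at d30. In mTEC it was 1.76 to 3.74 at d120 against 2.16 to 5.20 at d30. Treg libraries had 4.64 to 5.54 at d120 against 5.56 to 6.06 at d30, and CD4 libraries 4.04 to 4.79 against 6.30 to 6.50. Each population but mTEC, with its shallow library SOD1 1 of d30, had all libraries of d120 under all of d30. Libraries of d30 and d120 carry different kinds of name in the labels, so age and preparation cannot be told apart. All cTEC libraries of d120 had fewer counts than all of d30, at 1269529 to 3083181 against 4575299 to 16776303. So had those of CD4 cells, at 837050 to 2239878 against 2346044 to 14047347, while mTEC and Treg overlapped between days. Each cTEC library of d120 had 2 to 35 of the 50 genes at 0, and each of d30 had 0. Depth thus went with age in cTEC and CD4 cells, and its part in these levels was not tested.

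**Figure D3:**
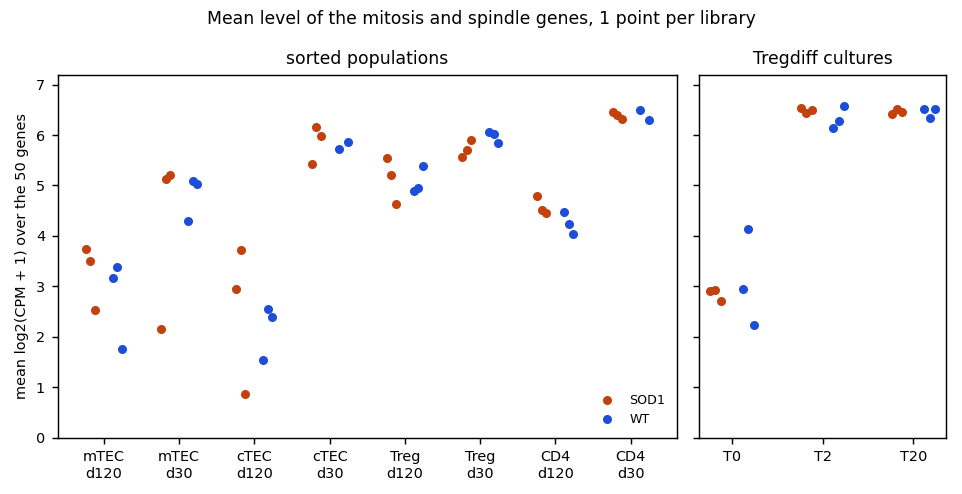
Mean of log2(CPM + 1) over the 50 genes in each library, by population, day or culture time and genotype; points are libraries. Libraries of d30 other than mTEC and those of the activated cultures lie between 5.42 and 6.59, while T0 and the epithelial libraries of d120 lie lower, at 4.14 or less.

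In cTEC, the epithelial cells of the cortex, 11 of the 50 genes fell and 0 rose at d120 against d30, while 4.63% of 14620 genes were called. The median was -2.87 against -0.30 over all genes, and 49 of 50 were negative. Called genes stood in the checkpoint (1 of 4), centromere and kinetochore (2 of 7), motors (4 of 8), midzone (2 of 7), anaphase (1 of 4) and chromosomes (1 of 6), and none in the CDK1 switch, kinases or passenger complex. Bub1, the checkpoint kinase, had 0 counts in all 6 libraries of d120, against 32.95, 49.9 and 37.9 CPM in SOD1 and 31.9 and 35.5 CPM in WT libraries of d30. With 3 counts over the d120 group as a floor it was at least 141-fold lower (edgeR adjusted p = 0.00528). Ube2c, the ubiquitin-conjugating enzyme of the APC/C, had 12.2, 17.8 and 0 CPM in SOD1 and 0.604, 0 and 1.87 CPM in WT libraries of d120, against 73.7, 138 and 112 CPM in SOD1 and 92.8 and 115 CPM in WT libraries of d30. The ages did not overlap, and Ube2c fell by 4.91 ± 0.93 on the log2 scale (edgeR adjusted p = 0.0127).

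Top2a in cTEC had 41.1, 47.2 and 0 CPM in SOD1 and 7.25, 0 and 0 CPM in WT libraries of d120, against 144, 303 and 222 CPM in SOD1 and 210.0 and 243 CPM in WT libraries of d30. Of the d120 libraries 3 had no count, those of d30 were all high, and Top2a fell by 4.53 ± 1.07 (edgeR adjusted p = 0.0303). Also called were Kif2c, which takes microtubules apart at their ends, Cenpf, a kinetochore protein, Cenpa, the histone of centromeres, at -2.66 ± 0.59, Nusap1 at -4.13 ± 0.95, Ect2, which activates RhoA for cytokinesis, Kif11, the chromokinesin Kif4 and Racgap1 of centralspindlin. Aurkb at -4.84 ± 1.35, Ccna2, cyclin A2, at -3.11 ± 0.94 and Tpx2, which activates Aurora A on the spindle, at -3.22 ± 0.98 led their roles without passing (edgeR adjusted p = 0.058 to 0.0816).

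Genes of the CDK1 switch in cTEC did not pass. Cdk1 had 6.66, 17.01 and 0 CPM in SOD1 and 5.44, 11.9 and 0 CPM in WT libraries of d120, against 36.4, 60.5 and 54.5 CPM in SOD1 and 64.1 and 58.5 CPM in WT libraries of d30. The ages did not overlap, at -2.84 ± 1.02 (edgeR adjusted p = 0.144). Ccnb1 had 0, 26.7 and 0 CPM in SOD1 and 0, 0 and 7.001 CPM in WT libraries of d120, against 48.9, 96.5 and 72.7 CPM in SOD1 and 73.5 and 72.5 CPM in WT libraries of d30, at -3.75 ± 1.26 (edgeR adjusted p = 0.115). Plk1 had 8.88, 1.93 and 0 CPM in SOD1 and 8.46, 0 and 0 CPM in WT libraries of d120, against 20.6, 34.8 and 32.9 CPM in SOD1 and 36.9 and 31.2 CPM in WT libraries of d30, at -3.10 ± 1.16. All 3 genes were at 0 in some libraries of d120 and well above 0 in every library of d30. Mki67 had 53.3, 41.8 and 0 CPM in SOD1 and 1.81, 41.7 and 13.1 CPM in WT libraries of d120, against 83.9, 118 and 120.4 CPM in SOD1 and 114 and 119.5 CPM in WT libraries of d30, at -1.99 ± 0.92 (edgeR adjusted p = 0.278). Pttg1, at 0.61 ± 0.52, was the single positive gene.

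The cTEC count rested on single libraries, at 1 without d30 WT 2, 2 without d30 SOD1 1, SOD1 2 or SOD1 3, 3 without d30 WT 3, 4 without d120 WT 1 or WT 3, 18 without d120 SOD1 2 and 29 without d120 SOD1 3, while the median stayed between -3.48 and -2.66. Markers of other cells moved too. Those of mTEC rose in 2 of 9, with sums of 1738 to 7656 CPM at d120 against 1378 to 2208 CPM at d30, and those of epithelium in 2 of 4, with none lower in either list. Myeloid markers fell in 3 of 6. Ptprc, the leukocyte antigen CD45, fell by 2.57, T cell markers fell in 3 of 7 with sums of 101 to 236 CPM at d120 against 878 to 1400 CPM at d30, and double-positive thymocyte markers fell in 3 of 10, with sums of 20.7 to 325 CPM against 643 to 1199 CPM. The part of these markers in the fall of the mitosis genes was not tested. Of 60 other mitosis genes 18 fell, and of 24 S phase genes 2, E2f1 and Gins1.

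**Figure D4:**
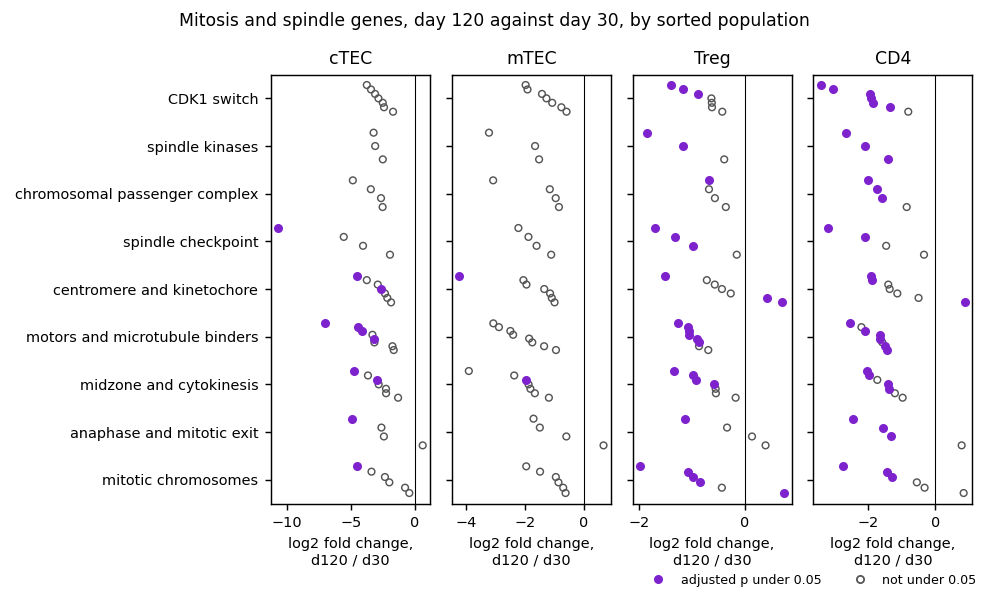
Log2 fold change of each of the 50 genes at d120 against d30 in cTEC, mTEC, Treg and CD4 cells, rows ordered by role, with an axis for each population; filled points have an adjusted p under 0.05. Points lie left of 0 for 49, 49, 45 and 47 genes, and filled points right of 0 are Smc4, Ndc80 and Cenpa in Treg and Cenpa in CD4 cells.

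In mTEC, the epithelial cells of the medulla, 2 of 50 genes fell with age and 0 rose (3.16% of 18919 genes called), with a median of -1.56 against -0.08 over all genes. Cenpe, the kinetochore motor that gathers chromosomes at the spindle equator, had 13.04, 5.88 and 5.92 CPM in SOD1 and 0.544, 0.412 and 0 CPM in WT libraries of d120, against 0, 37.1 and 34.4 CPM in SOD1 and 43.6, 22.02 and 41.9 CPM in WT libraries of d30. Apart from the shallow d30 SOD1 1, ages did not overlap, and Cenpe fell by 4.23 ± 0.63 (edgeR adjusted p = 0.00233). Kif20a had 12.2, 20.5 and 16.4 CPM in SOD1 and 10.9, 10.1 and 5.17 CPM in WT libraries of d120, against 0, 53.5 and 67.2 CPM in SOD1 and 64.00, 21.2 and 45.3 CPM in WT libraries of d30, and fell by 1.96 ± 0.45 (edgeR adjusted p = 0.0298). Its call was lost without d30 SOD1 2, SOD1 3, WT 1 or WT 3 or d120 SOD1 1, which left 1 call, while 6, 8 and 11 genes were called without d120 WT 2, WT 1 and WT 3. Its exons share 29.3% of their bases with Cdc23, and strand handling is not given in the sources used here.

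Next in p were Ncapg, a subunit of condensin I, at -1.95 ± 0.51 and Ccna2 at -1.91 ± 0.52, which did not pass (edgeR adjusted p = 0.0536 and 0.064).

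The other core genes of mTEC did not pass. Mki67 had 30.8, 14.8 and 28.96 CPM in SOD1 and 8.08, 16.5 and 54.8 CPM in WT libraries of d120, against 0, 50.5 and 62.8 CPM in SOD1 and 59.7, 30.01 and 61.8 CPM in WT libraries of d30, at -0.95 ± 0.49. Cdk1 had 32.8, 12.4 and 17.1 CPM in SOD1 and 10.7, 28.2 and 30.6 CPM in WT libraries of d120, against 34.4, 55.8 and 45.2 CPM in SOD1 and 51.9, 28.1 and 54.97 CPM in WT libraries of d30, at -1.07 ± 0.40. For Cdk1, 3 of 6 libraries of d120 lay within the range of d30, and for Mki67 2 of 6 did, or all 6 if the shallow library at 0 is counted. Ccnb1 had 57.8, 5.30 and 0 CPM in SOD1 and 6.06, 7.82 and 0 CPM in WT libraries of d120, against 0, 36.4 and 61.99 CPM in SOD1 and 45.97, 24.5 and 41.2 CPM in WT libraries of d30, at -1.97 ± 0.94. Plk1 had 2.88, 3.66 and 0 CPM in SOD1 and 0, 8.64 and 0 CPM in WT libraries of d120, against 34.4, 30.2 and 31.5 CPM in SOD1 and 23.5, 8.09 and 25.6 CPM in WT libraries of d30, at -3.21 ± 1.12 (edgeR adjusted p = 0.151). Top2a had 27.9, 29.6 and 15.8 CPM in SOD1 and 11.6, 45.7 and 163 CPM in WT libraries of d120, against 0, 97.2 and 85.5 CPM in SOD1 and 79.97, 47.6 and 104 CPM in WT libraries of d30, at -0.86 ± 0.52. Among these, Ccnb1 was high in 1 library of d120 (SOD1 1) and Top2a in another (WT 3). Markers of mTEC rose in 2 of 9, of epithelium in 2 of 4 and of cTEC in 1 of 8, with none lower. Beside them 0 of 9 double-positive thymocyte markers passed, with sums of 63.2 to 155 CPM at d120 against 118 to 241 CPM at d30.

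In Treg cells 25 genes fell and 3 rose at d120 against d30, with a median of -0.70 against 0.01 over all genes, of which 29.9% were called. Ncapg ranged over 7.56 to 18.8 CPM at d120 against 36.1 to 62.8 CPM at d30 and fell by 1.99 ± 0.22 (edgeR adjusted p = 5e-05). Tpx2 was at -1.86 ± 0.25, Bub1b, the checkpoint protein BubR1, at -1.70 ± 0.27, Cenpf at -1.52 ± 0.26, Kif11 at -1.26 ± 0.17 and Prc1 at -1.34 ± 0.16. Smaller falls were those of Ccna2 at -1.17 ± 0.23, Ube2c at -1.12 ± 0.23, Kif23 at -0.93 ± 0.15 and Birc5, survivin of the passenger complex, at -0.68 ± 0.17. Top2a had 153, 121 and 141 CPM in SOD1 and 94.9, 160.4 and 150.2 CPM in WT libraries of d120, against 224, 261 and 276 CPM in SOD1 and 289, 378 and 311 CPM in WT libraries of d30. No library of d120 reached those of d30, and it fell by 1.08 ± 0.16 (edgeR adjusted p = 0.000437). Plk1 had 13.96, 11.3 and 9.30 CPM in SOD1 and 9.999, 8.53 and 12.8 CPM in WT libraries of d120, against 22.4, 19.96 and 26.2 CPM in SOD1 and 18.5, 29.9 and 28.9 CPM in WT libraries of d30, without overlap, and fell by 1.17 ± 0.21. Ccnb1 had 44.4, 28.2 and 13.9 CPM in SOD1 and 32.5, 21.3 and 31.4 CPM in WT libraries of d120, against 32.1, 51.00 and 50.3 CPM in SOD1 and 55.5, 57.5 and 65.9 CPM in WT libraries of d30, with overlap, and fell by 0.89 ± 0.23.

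Cdk1 in Treg cells had 62.1, 49.8 and 27.4 CPM in SOD1 and 35.5, 35.1 and 41.9 CPM in WT libraries of d120, against 48.3, 42.6 and 64.7 CPM in SOD1 and 42.7, 58.9 and 71.3 CPM in WT libraries of d30, at -0.43 ± 0.19, and did not pass (edgeR adjusted p = 0.115). Mki67 had 103, 69.9 and 89.4 CPM in SOD1 and 70.3, 99.4 and 92.2 CPM in WT libraries of d120, against 87.04, 115 and 108 CPM in SOD1 and 116, 149 and 134 CPM in WT libraries of d30, at -0.43 ± 0.16, and did not pass either (edgeR adjusted p = 0.0549). Smc4, which fell in culture, ran against the other genes here too. It had 961, 911 and 1172 CPM in SOD1 and 918, 796 and 835 CPM in WT libraries of d120, against 509, 408 and 622 CPM in SOD1 and 589.6, 605 and 562 CPM in WT libraries of d30. All libraries of d120 lay above those of d30, and it rose by 0.76 ± 0.13 (edgeR adjusted p = 0.00123). Ndc80, which names the NDC80 complex, rose by 0.71 ± 0.21 and Cenpa by 0.42 ± 0.14, calls lost without any of 4 and 9 of the 12 libraries. Of 60 other mitosis genes 18 fell and 2 rose, and of 24 S phase genes 12 fell, with Mcm2 of the replication helicase at -1.06 ± 0.09, and 2 rose. Double-positive thymocyte markers fell in 4 of 10 and rose in 1, with sums of 1019 to 1589 CPM against 2063 to 2960 CPM, Treg markers rose in 5 of 8 and B cell markers in 2 of 5, T cell markers fell in 4 of 7 and rose in 1, those of epithelium fell in 2 of 4 and of cTEC in 2 of 4, and their part was not tested.

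In CD4 cells 32 genes fell and 1 rose, with a median of -1.56 against -0.02 over all genes, of which 10.6% were called. The d120 and d30 libraries did not overlap for 36 genes, against 14.7% of all genes tested. Ccnb1 had 9.92, 3.99 and 17.1 CPM in SOD1 and 9.20, 8.97 and 0 CPM in WT libraries of d120, against 93.7, 52.8 and 74.8 CPM in SOD1 and 86.6 and 89.5 CPM in WT libraries of d30. Even the highest library of d120 lay far under d30, and Ccnb1 fell by 3.04 ± 0.55 (edgeR adjusted p = 0.00631). Racgap1 fell by 2.04 ± 0.28 (edgeR adjusted p = 0.0017), Ube2c was at -2.43 ± 0.36, Bub1 at -2.07 ± 0.39, Ccnb2 at -1.94 ± 0.32 and Ccna2 at -1.92 ± 0.32. Tpx2 was at -2.66 ± 0.59, Ckap2l, a spindle protein, at -2.09 ± 0.40, Cdca8, borealin of the passenger complex, at -2.01 ± 0.39 and Nuf2 at -1.92 ± 0.44. Top2a had 76.6, 102 and 129 CPM in SOD1 and 139, 93.1 and 152 CPM in WT libraries of d120, against 285, 355 and 315 CPM in SOD1 and 356 and 374 CPM in WT libraries of d30, and fell by 1.29 ± 0.25 without overlap.

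Cdk1 in CD4 cells had 55.1, 26.9 and 18.6 CPM in SOD1 and 42.8, 16.1 and 16.03 CPM in WT libraries of d120, against 113, 95.7 and 71.1 CPM in SOD1 and 89.96 and 79.7 CPM in WT libraries of d30, and fell by 1.36 ± 0.35 (edgeR adjusted p = 0.028). Plk1 had 5.51, 5.99 and 28.2 CPM in SOD1 and 4.87, 10.1 and 0 CPM in WT libraries of d120, against 54.3, 44.5 and 40.5 CPM in SOD1 and 49.9 and 32.7 CPM in WT libraries of d30, and fell by 2.09 ± 0.62 (edgeR adjusted p = 0.0479). Neither overlapped between ages, but the calls were lost without any of 6 and 8 of the 11 libraries. Mki67 had 88.8, 79.3 and 80.1 CPM in SOD1 and 40.05, 99.1 and 105 CPM in WT libraries of d120, against 102, 153 and 143 CPM in SOD1 and 171 and 153 CPM in WT libraries of d30, at -0.55 ± 0.30, and did not pass, and d120 WT 3 lay within the range of d30. Cenpa rose by 0.89 ± 0.22 (edgeR adjusted p = 0.0238), a call lost without d30 SOD1 2, SOD1 3, WT 2 or WT 3. Of the 33 calls 19 were left without d30 SOD1 2 or SOD1 3, 8 without d30 WT 2 and 11 without d30 WT 3. Of 60 other mitosis genes 9 fell, and of 24 S phase genes 14, with Mcm2 at -2.05 ± 0.25. Double-positive thymocyte markers fell in 2 of 10, with sums of 431 to 792 CPM against 885 to 1664 CPM, those of cTEC in 2 of 5, of myeloid cells in 2 of 6 and of epithelium in 1 of 4, while Treg markers rose in 2 of 8, and their part was not tested.

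Between epithelial populations of d30, 6 of 50 genes were lower in mTEC than in cTEC and 0 higher, with a median of -0.95 against 0.03 over all genes. Of 21733 genes 5.69% were lower and 16.6% higher (22.3% called), so the 50 were called less often than all genes, both directions together. Cenpa was at -2.13 ± 0.46, Birc5 at -2.04 ± 0.69, Cdca3, a mitotic entry factor, at -1.97 ± 0.65, and the condensin subunits Smc4 and Ncapd2 at -1.69 ± 0.34 and -1.71 ± 0.51. Top2a, at -1.54 ± 0.57, lost its call with DESeq2's size factors (adjusted p = 0.0989), under which the median of all genes moved by 0.27, to 0.29, and that of the 50 genes was -0.69. The count was 3 without cTEC d30 WT 2, mTEC d30 WT 2 or mTEC d30 SOD1 2 and 2 without cTEC d30 WT 3. In the same comparison 7 of 7 T cell markers and 7 of 10 double-positive thymocyte markers were lower in mTEC, as were 2 of 6 myeloid markers, and markers of fibroblasts and endothelium were higher in 2 of 6. Their part was not tested.

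At d120, 13 of 50 genes were higher and 3 lower in mTEC than in cTEC. Of all genes 23.7% were higher and 4.97% lower (28.7% called), so these counts lie near the share over all genes. The 50 genes had a median of 0.34 against 0.62 over all genes. This median rested on single libraries, at 0.20 without mTEC d120 SOD1 2 or WT 2, 0.54 without mTEC d120 WT 3, 0.57 without cTEC d120 WT 3, 1.04 without cTEC d120 WT 2 and 1.29 without cTEC d120 SOD1 2, where the median of all genes was 0.96. Bub1, at 0 in all cTEC libraries of d120, had 10.8, 7.56 and 28.3 CPM in SOD1 and 0.544, 18.5 and 0 CPM in WT mTEC and was at least 26.6-fold higher. Top2a at 2.31 ± 0.60, Ube2c at 2.18 ± 0.64 and Cdk1 at 1.71 ± 0.55 were also higher, and Smc4 at -1.69 ± 0.32, Cenpe at -2.85 ± 0.71 and Ckap2l at -1.73 ± 0.67 lower. Kif2c was higher by 5.29 ± 1.18, but had 0, 5 and 3 counts in SOD1 and 0, 0 and 0 in WT cTEC libraries. The size of its change is therefore uncertain. Markers of myeloid cells were higher in 5 of 6, of B cells in 3 of 5 and of fibroblasts and endothelium in 4 of 6, and those of double-positive thymocytes lower in 3. Summed markers of mTEC themselves were 4979 to 10180 CPM in mTEC and 1738 to 7656 CPM in cTEC of d120, which overlap, and those of cTEC 1094 to 1720 CPM and 8683 to 18330 CPM. The part of these markers was not tested.

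Between Treg and CD4 cells of d30 none of the 50 genes was called (0.856% of all genes were), and 2 of the 50 had an unadjusted p under 0.05 (1751 of all 21733 genes). DESeq2 called 1 of the 50 and limma voom 15, and 48 of 50 were negative, with a median of -0.60. The smallest p were those of Cenpa at -1.31 ± 0.43, Racgap1 at -0.85 ± 0.41 and Cdc25b at -1.13 ± 0.58. These values come from a fit that does not pair same-numbered libraries, and with the number as a replicate block 0 genes were called too. At d120, 1 gene was called (5.25% of all genes). Cenpa had 139.5, 93.3 and 78.2 CPM in SOD1 and 136, 98.3 and 135 CPM in WT Treg libraries, against 342, 422 and 278 CPM in SOD1 and 349.6, 230.3 and 272 CPM in WT CD4 libraries. It was lower in Treg, at -1.48 ± 0.42 (edgeR adjusted p = 0.0285), a call lost without CD4 d120 SOD1 2 or Treg d120 SOD1 2, SOD1 3, WT 1 or WT 2. The median of 0.61 stood against 0.44 over all genes, and with DESeq2's size factors 0.24 stood against 0.10.

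Between SOD1 and WT none of the 50 genes passed the test in any sorted population on either day. Of all genes, 0.00684% were called in cTEC, both at d120 and at d30. That share was 0.00529% on each day in mTEC, 0.0135% on each day in Treg cells and 0.00801% on each day in CD4 cells. An unadjusted p under 0.05 was reached at d120 by 8 of the 50 genes in cTEC, 4 in mTEC, 1 in Treg cells and 6 in CD4 cells, and at d30 by 0 in each population. Of all genes tested at d120, 1327 of 14620 reached it in cTEC and 1546 of 18919 in mTEC. In Treg and CD4 cells 999 of 14824 and 776 of 12479 did. At d30 few genes reached it at all, 47, 68, 220 and 35 in the same order, so the 0 of the 50 there says little. DESeq2 called 1 gene, in mTEC of d120, and limma voom 0 in each of these comparisons. Sod1 itself, at changes of 2.48 to 3.95, was not called in cTEC, mTEC or CD4 cells on either day. In simulated counts, 4-fold differences between genotypes of d120 were recovered for 0% of genes in cTEC and 5.5% in mTEC. The share was 51% in Treg and 7% in CD4 cells. For 2-fold differences the shares were 0% in cTEC, 0% in mTEC, 15.5% in Treg and 1% in CD4 cells. A lack of calls in any of these populations therefore does not show a lack of change.

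In mTEC and in CD4 cells of d120 Cenpe had the smallest p of the 50 genes. In mTEC it had 13.04, 5.88 and 5.92 CPM in SOD1 against 0.544, 0.412 and 0 CPM in WT libraries, without overlap, at 4.50 ± 0.93 (edgeR adjusted p = 0.259). In CD4 cells it had 20.9, 32.4 and 42.8 CPM in SOD1 against 15.7, 2.62 and 1.69 CPM in WT libraries, also without overlap, at 2.28 ± 0.65 (edgeR adjusted p = 0.719). In cTEC of d120 Ube2c was at 3.39 ± 1.29 and Racgap1 at 2.76 ± 1.06. Aurkb, next by p there, had 0, 31.3 and 0 CPM in SOD1 against 0, 0.850 and 0 CPM in WT libraries, with 81 counts in SOD1 2 and 1 in WT 2 and none elsewhere. In Treg of d120 Anln, which ties actin to the cleavage furrow, was at -1.45 ± 0.60, Cenpa at -0.42 ± 0.19 and Ncapd2 at 0.46 ± 0.24. Racgap1 was at 1.13 ± 0.46 in mTEC, and Cdc20 at 1.67 ± 0.56 and Bub1b at 2.13 ± 0.88 in CD4 cells of d120. None of these passed. At d30 the smallest p belonged to Nusap1 at 0.40 ± 1.29 in cTEC, Ncapg at 1.01 ± 0.74 in mTEC, Mad2l1, which blocks CDC20 in the checkpoint, at -0.33 ± 0.23 in Treg and Kif15, a spindle motor, at -0.47 ± 0.55 in CD4 cells. Ncapg in mTEC of d30 had 206.5, 43.7 and 43.4 CPM in SOD1 against 36.2, 17.6 and 53.7 CPM in WT libraries. Its 206.5 CPM stands for 6 counts in the shallow SOD1 1, and the other SOD1 libraries lay within the WT range. Without CD4 d120 WT 1, 2 genes were higher in SOD1 CD4 cells. The genotype difference in the change with age gave 0 calls in the 4 populations (0% of all genes in each), with an unadjusted p under 0.05 for 1 of the 50 genes in mTEC and CD4 cells, Cenpe both times, and for 0 in cTEC and Treg cells, and 0 called by DESeq2 and limma voom.

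In whole thymus of d120, given as TPM, a value scaled by gene length and library, levels can be set between genes. Top2a had the highest mean TPM, 318 in SOD1 against 342 in WT, followed by Smc4 at 216 in SOD1 against 212 in WT and Ube2c at 152, 192 and 256 in SOD1 against 228, 191 and 253 in WT libraries. Cdc25c, a phosphatase of CDK1, was the lowest, with a mean TPM of 10.3 in SOD1 against 9.98 in WT, below the checkpoint kinase Ttk at 11.8 in SOD1 against 13.4 in WT. Between genotypes 0 of 50 genes passed (limma on log2(TPM + 1), 0.0831% of 14437 genes called), 9 had an unadjusted p under 0.05 (494 of all genes), and limma with array weights called 0. The median was -0.20 against -0.03 over all genes, with 44 genes negative. The median was -0.10 without SOD1 1 and -0.31 without SOD1 3.

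Ccnb1 had 60.1, 67.5 and 73.9 TPM in SOD1 against 95.2, 92.3 and 90.9 TPM in WT thymus. Every SOD1 library lay under every WT one, at -0.47 ± 0.10 (limma adjusted p = 0.999). Foxm1, the transcription factor of late cell cycle genes, was at -0.42 ± 0.13 and Kif4 at -0.37 ± 0.13. Mki67 had 64.5, 95.1 and 57.9 TPM in SOD1 against 105, 86.2 and 106 TPM in WT. Cdk1 had 101, 131 and 151 TPM in SOD1 against 142, 129.7 and 157 TPM in WT. Both overlapped between genotypes. Plk1 had 43.8, 52.4 and 61.2 TPM in SOD1 against 65.1, 62.4 and 68.9 TPM in WT, without overlap. Top2a had 281, 319.9 and 354 TPM in SOD1 against 332, 316 and 377 TPM in WT, with overlap. Pttg1 and Kif23, which did not follow the other genes in culture, were 2 of the 6 positive genes, at means of 93.3 and 69.8 TPM in SOD1 against 78.0 and 64.8 TPM in WT. The list of other mitosis genes had a median of -0.13 and S phase genes -0.20, with 0 called in either.

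**Figure D5:**
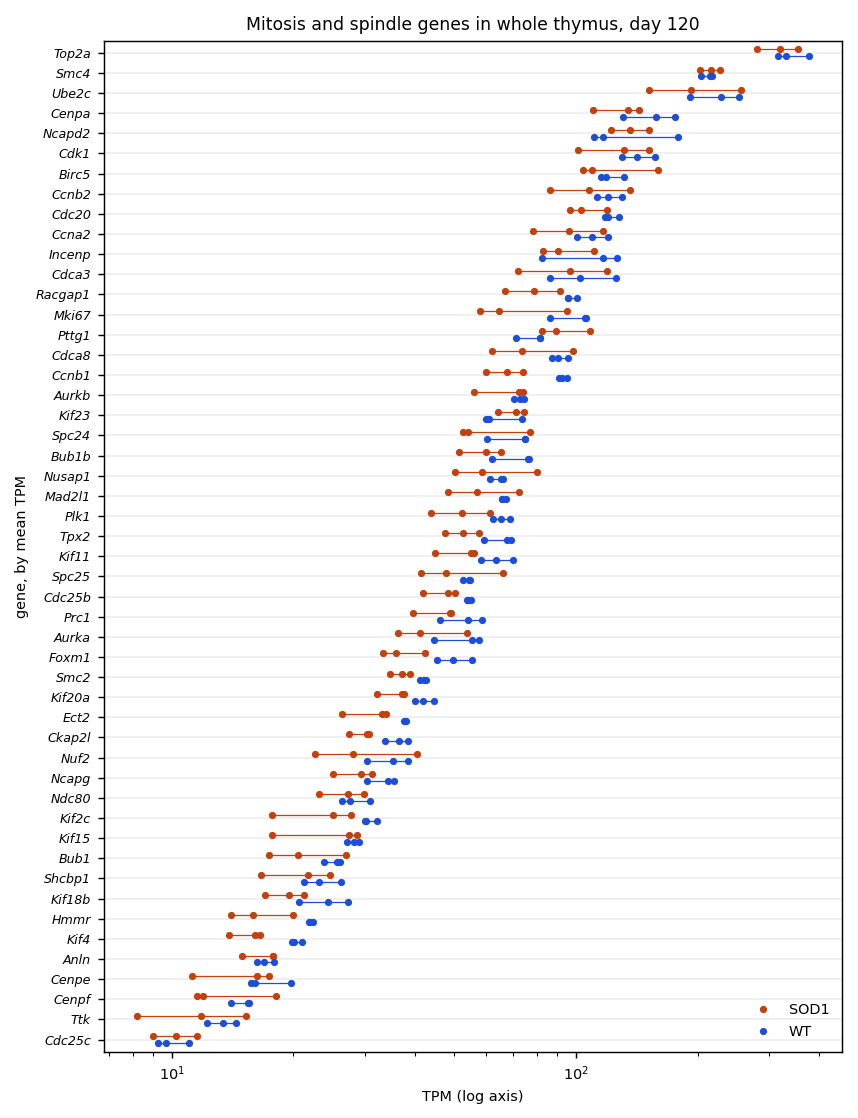
Level of each of the 50 genes in the 3 SOD1 and 3 WT whole thymus libraries of d120, in TPM on a log axis, ordered by mean. SOD1 points lie a little left of WT points for most genes, and both genotypes keep nearly the same order from Top2a down to Cdc25c.

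In iLN of d120, with at most 894958 counts per library, 6 of the 50 genes passed the filter on low counts (Cdc25b, Mki67, Mad2l1, Smc4, Ncapd2 and Pttg1), and the other 44 were too low to test. None was called by edgeR (0.0574% of 5226 genes called), DESeq2 or limma voom, and 1 had an unadjusted p under 0.05 (261 of all genes). That was Cdc25b, at 25.2, 9.68 and 33.00 CPM in SOD1 against 58.7, 65.2 and 44.9 CPM in WT nodes. The genotypes did not overlap, at -1.17 ± 0.48 (edgeR adjusted p = 0.968).

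Likeness to the set was read as Pearson's r of each gene's log2(CPM + 1) with the mean of the other 49. Over the 46 sorted libraries the median r was 0.823 and 33 genes were above 0.8, with Aurkb (0.923), Nuf2 (0.917) and Ccnb2 (0.911) the highest. Pttg1 (0.107), Cdc25c (0.339) and Smc4 (0.556) were the lowest. Over the 18 culture libraries the median r was 0.948 with 45 genes above 0.8, and Spc25 (-0.803), Cdc25b (-0.7), Smc4 (-0.676), Pttg1 (-0.126) and Kif23 (0.242) were the others. The same 5 genes had no rise in culture, so this restates that comparison by library, and libraries share population, age and depth.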

How the data were processed

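RNA of sorted cells, cultures, lymph node and whole thymus was measured by bulk RNA sequencing with the SMARTseq v4 low input kit, per the labels' protocols. The deposited tables of sorted cells, iLN and cultures hold counts per gene, made by the authors from their reads and used as deposited. The authors deposited whole thymus as TPM, which keeps no depth. Per the submitters' processing notes, mm10 was the build and DESeq2 one of the tools, with neither role nor version stated. Aligner, counter and strand setting: not given in the sources used here.

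Groups follow the labels for genotype, sorted population or tissue, and day or culture time. Nothing in the labels says that replicates came from separate animals or cultures, so p-values measure the spread between these samples. Each population was fitted with all its libraries, and contrasts over age or activation average the genotypes. Counts were tested with edgeR 4.0.16 in R 4.3.3 (TMM, filterByExpr by group, trended dispersion, glmQLFit and glmQLFTest), and TPM with limma 3.58.1 on log2(TPM + 1), leaving out genes that averaged under 1 TPM, a scale that understates the change of low genes. The Benjamini-Hochberg method adjusted p over all genes tested. The written design gave edgeR a dispersion per gene. After the data were seen, simulated counts with 200 changed genes gave 25.3% false calls with that setting and 4.83% with the trended dispersion over all 20 draws, so the trended one, a listed alternative, became the main setting. In these draws, 4-fold changes were recovered for 71.5% of genes in cultures of T2 against T0, and with age for 0.5% in cTEC, 26.5% in mTEC, 68% in Treg and 41% in CD4 cells.

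The 50 genes, their roles, the other lists and the naming rule were chosen with earlier results of these data known. Genes named were Mki67, Cdk1, Ccnb1, Top2a and Plk1 in each set, up to 6 called genes with the smallest adjusted p and at least 5 CPM, the leading gene of each role, genes that moved against most calls and, with no call, those with the smallest p. Some genes beyond the rule are named for their role or promoter, after their values were seen. Same-numbered Treg and CD4 libraries of d30 deviated together in 5 of 5 pairs (correlation 0.185 to 0.289), so the numbers of the titles were taken as pairs there. The main fit does not use these pairs, which enter only through the replicate block among the alternatives. A group at 0 was given a floor of 3 counts over the group. Alternatives were DESeq2 1.42.0, limma voom, size factors in place of TMM, no filter, fits of the compared groups alone or without libraries of low depth, d120 library numbers as a covariate, other pseudocounts, array weights, the replicate block and each library left out. Promoter windows and sequences are RefSeq's, transcripts were aligned with BLAST 2.17.0, and tables and plots were made with Python 3.11.15, pandas 2.3.3, the R package data.table (version 1.17.8) and matplotlib 3.10.9.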

Additional observations from a re-analysis of the deposited data

How the results depend on the processing

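Of the 30 comparisons 20 had no call among the 50 genes, and 300 of their 310 alternative fits had none either. In the 10 comparisons with calls, the count moved by over 1.5 times, or to the other direction, in 59 of 186 alternative fits. In the cultures, T2 and T20 against T0 gave 47 to 48 and 46 to 48 calls with 1 library left out. At T0 the 1 call between SOD1 and WT became 0 with DESeq2, limma voom, the compared groups alone or without libraries of low depth, 5 without a filter on low counts and 2 with a dispersion per gene, and 0 to 1 with 1 library left out. The genotype difference in the rise, 0 in the main fit, gave 5 at T2 and 1 at T20 without the filter and 1 each with a dispersion per gene. In cTEC the 11 calls with age became 34 with DESeq2, 44 with limma voom, 27 without the filter, 26 with a dispersion per gene, 29 without low depth and 1 to 29 with 1 library left out. In mTEC the 2 calls became 8 with DESeq2, 26 with limma voom, 4 with size factors, 9 without the filter, 7 with a dispersion per gene and 1 to 11 with 1 library left out. Treg gave 24 to 39 and CD4 cells 8 to 38 calls with 1 library left out. Between SOD1 and WT, mTEC of d120 had 1 call with DESeq2, without the filter and with a dispersion per gene, and CD4 cells of d120 had 0 to 2 with 1 library left out. For mTEC against cTEC, the 6 calls of d30 became 33 with limma voom, 16 without the filter, 10 without low depth and 2 to 7 with 1 library left out, and the 16 of d120 became 9 with limma voom and 14 to 23. For Treg against CD4 cells, d30 had 1 call with DESeq2 and 15 with limma voom, and d120 had 2 with DESeq2, 0 to 1 with 1 library left out and 12 with limma voom, of which 10 were higher and 2 lower in Treg, the other direction. The cause of these differences was not tested. Other comparisons of SOD1 with WT stayed at 0 to 0 with 1 library left out.

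Same-numbered libraries deviated together with correlations of 0.0191 to 0.096 between T0 and the activated cultures, -0.0736 to 0.0989 between mTEC and cTEC, 0.0524 to 0.351 between T2 and T20 and 0.0731 to 0.169 between Treg and CD4 cells of d120, not all over 0.1, so the numbers were not taken to pair these samples. For T2 with T20, and for Treg with CD4 cells of d120, 5 of 6 pairs were over 0.1. Differently numbered libraries were not set beside them, so pairing there stays possible. With the number as a replicate block the calls with age were 1 in cTEC, 1 in mTEC, 33 in Treg and 31 in CD4 cells. The replicate block left Treg against CD4 cells of d30, where the numbers were taken as pairs, at 0 calls, and changed no count but those of cTEC and mTEC with age by over 1.5 times. Depth was lowest in mTEC d30 SOD1 1, at 15135 counts, and in iLN, at 63887 to 894958 counts, and 4 of the 8 libraries of low depth are cultures.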
